A study of Saccharomyces cerevisiae with 24 samples.

Results

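Trehalose metabolism in budding yeast is covered here by 7 genes chosen by their function: TPS1, TPS2, TPS3 and TSL1 of synthesis, and NTH1, NTH2 and ATH1 of breakdown. All 7 were found by symbol among the 6000 nuclear protein-coding genes of assembly R64 whose upstream window of 500 bp fits on the chromosome. Trehalose is a sugar of a pair of linked glucose units that yeast stores and that protects proteins and membranes under stress. Tps1 joins UDP-glucose and a glucose phosphate to trehalose phosphate, Tps2 removes the phosphate, and Tps3 and Tsl1 are related regulatory subunits of the same complex. Nth1 and Nth2 are the neutral trehalases, which split trehalose in the cytosol, and Ath1 is the acid trehalase, needed for growth on trehalose from outside the cell. Yeast is known to build up trehalose when glucose runs low, when it respires and when growth slows, and the synthesis genes are known targets of the stress activators Msn2 and Msn4.

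FAIRE (formaldehyde-assisted isolation of regulatory elements) recovers DNA that is not held by protein after fixation, and a peak marks a stretch that is richer in the FAIRE library than in its own input library of unfixed DNA. All samples came from giant colonies of strain BY4742, a common laboratory yeast (mating type alpha) that carries deletions in HIS3, LEU2, LYS2 and URA3. The colonies had grown for 3 days at 28 °C on agar with yeast extract, glycerol and ethanol, a trace of glucose, uracil, calcium chloride and the pH dye bromocresol purple, and cells were taken with a spatula. Samples of 4, 20, 100 and 500 mg of biomass were taken, with 3 biological replicates each, so that 24 samples gave 12 peak lists of a FAIRE library against its input. A colony holds cells in different states, and a site open in few cells cannot be told apart from a site that is weakly open in many. The lists held 4180 to 6439 peaks and covered 14.4% to 24.3% of the nuclear genome, with the most peaks in the 3 lists at 20 mg. Read totals were not analysed here. Over the coding sequences of LEU2, LYS2 and URA3 no list had a peak, whereas HIS3, of which the strain's allele removes a part, had one in all 12 lists, with a mean of 47.3% of its coding sequence covered.

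Within 500 bp of the start codon, synthesis genes had a FAIRE peak in nearly every list and breakdown genes in few or none. A promoter was called marked when a summit, the highest point of a peak, lay within 500 bp upstream of the start codon. TPS1 and TPS3 were marked in 12 of 12 lists, TPS2 in 11 and TSL1 in 7, against 1 list for NTH1 and 0 for NTH2 and ATH1. Of all 6000 genes, 9.73% were marked in all 12 lists and 58% in none, so the 2 of 7 members marked throughout and the 2 marked in none are read against those shares. When any overlap of a peak with the window counted, TPS1, TPS2 and TPS3 were reached in 12 lists, TSL1 in 11, NTH1 in 4, and NTH2 and ATH1 in 0. By that rule 27.4% of all genes were reached in all 12 lists and 38.5% in none. Per list, 3.58 ± 0.669 members were marked (SD, n = 12 lists), and of all 6000 promoters 20.2% to 29.3% were. The members were chosen with earlier results of these data known, so these counts are a description and carry no test.

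The share of the 500 bp window that lay under peaks also separated synthesis from breakdown genes in its mean, but put TSL1 above TPS2. Its mean over the 12 lists was 85.0% ± 14.3 for TPS1, 63.7% ± 8.55 for TPS2, 84.6% ± 7.12 for TPS3, 82.9% ± 29.9 for TSL1 and 14.9% ± 22.3 for NTH1 (SD, n = 12 lists each). NTH2 and ATH1 were at 0 in all 12 lists. Single lists did not all keep the 2 kinds apart: in 20 mg replicate 2 NTH1 had 53% and TSL1 0%. TPS1, TPS3 and TSL1, whose means differ by less than their own spread, lay above 97.0%, 96.9% and 96.4% of all genes, and TPS2 above 88.7%. The median over the 7 members was 63.7%, and over all 6000 genes it was 5.18%.

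**Figure D1:**
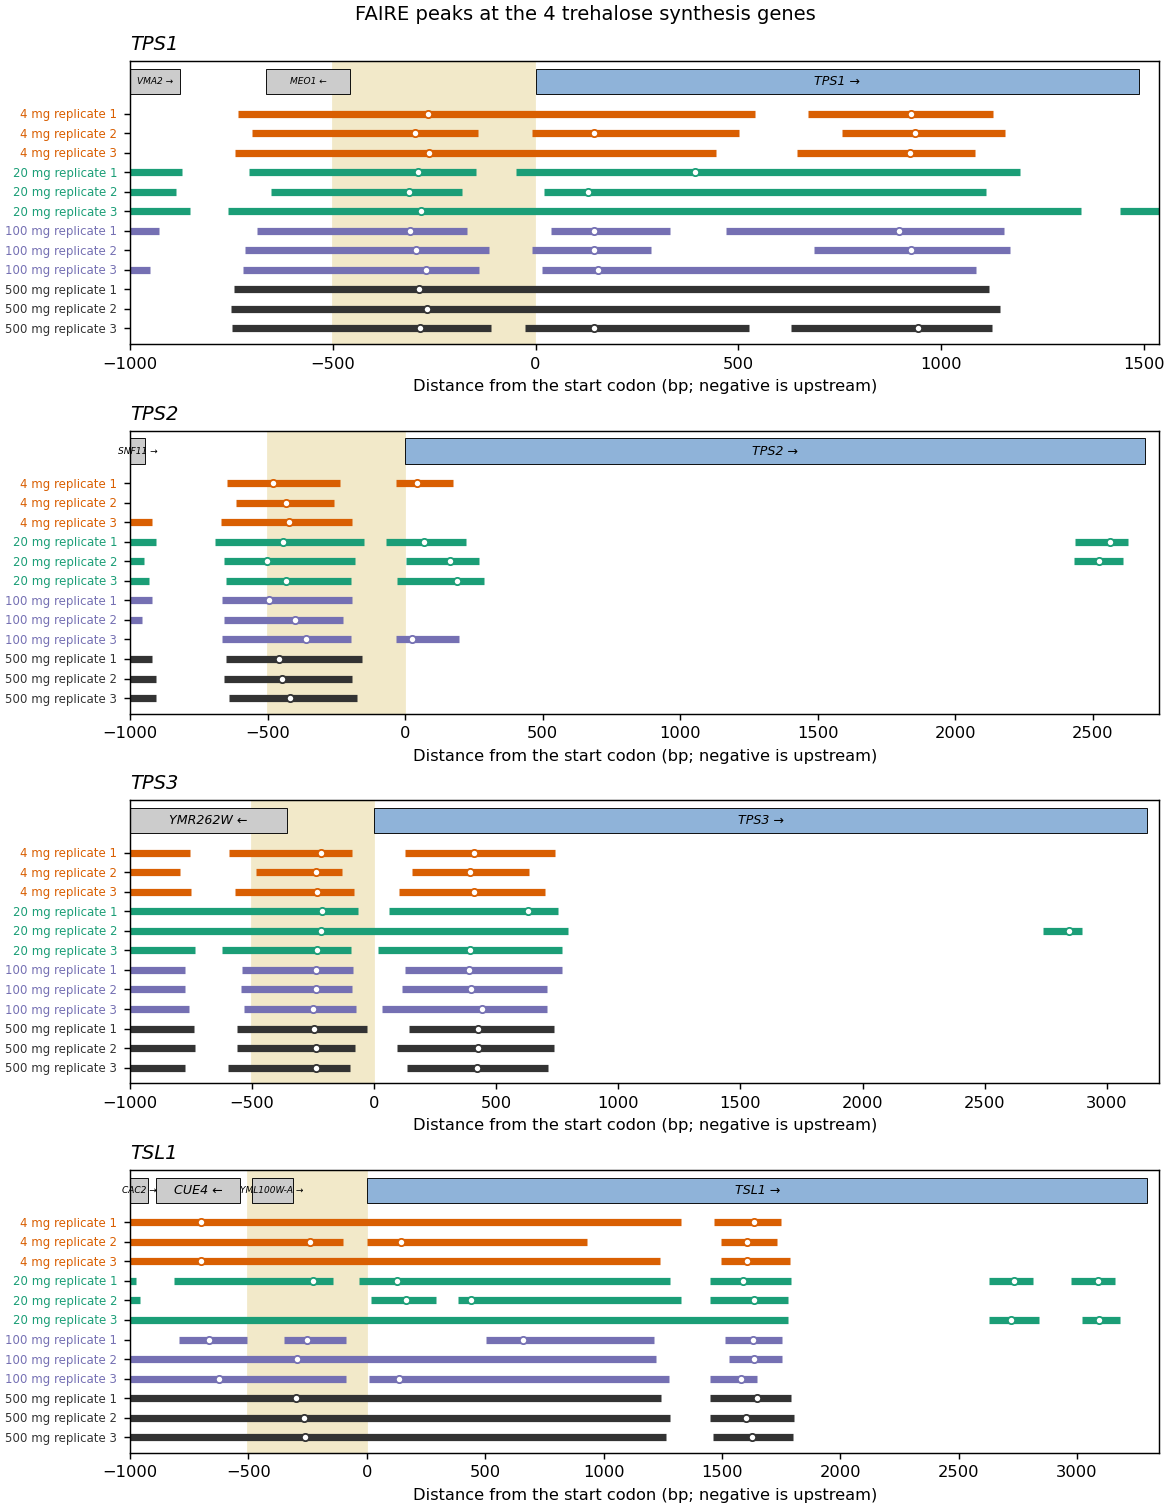
Peaks (bars) and summits (open circles) of the 12 lists at the 4 synthesis genes, one row per list and coloured by biomass, against the distance from the start codon in bp; the shaded band is the 500 bp window, boxes are coding sequences and arrows their direction relative to the named gene. An upstream peak lies near -286 at TPS1, -438 at TPS2 and -237 at TPS3 in all 12 lists, and the position -261 at TSL1 is covered in 11 of 12.

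TPS1, the synthase gene (YBR126C, chromosome II, 488905 to 490392, minus strand), had its upstream summit between 262 and 311 bp before the start codon in all 12 lists, with a median of 286 bp. That median is position 490678, in the 457 bp of noncoding sequence that separate TPS1 from the divergent gene MEO1. The peaks there also covered coding sequence of MEO1, and their far ends lay 653 to 758 bp upstream. The lists cannot assign these peaks to TPS1 or to MEO1. Fold enrichment at these summits, as given by the authors' peak caller, was 1.41 at the lowest, 2.83 in the median and 4.85 at the highest of the 12 lists. Fold enrichment depends on each library and is not compared between lists, so the place within a list is given as well. Ranked by the deposited −log10 p, the TPS1 summit stood 92nd of 5057 peaks in 500 mg replicate 2 but 6036th of 6439 in 20 mg replicate 2 and 3577th of 4180 in 100 mg replicate 1. It was among the strongest 10% of peaks in 6 of 12 lists. The upstream peak was thus present in every list and strong in some of them.

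Peaks also covered most of the TPS1 coding sequence. In each of the 12 lists a peak lay over positions 144 and 926 of the coding sequence, which were separate summits in 6 lists each. In 5 lists a single peak of 1188 to 2104 bp ran from the upstream summit past the start codon, namely 4 mg replicates 1 and 3, 20 mg replicate 3, and 500 mg replicates 1 and 2. The coding sequence was covered to 70.4% ± 10.9 (SD, n = 12 lists), more than in 88.3% of all genes.

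TPS2, which encodes the phosphatase (YDR074W, chromosome IV, 593893 to 596583, plus strand), had the marked upstream peak that most often ranked first among the members. The peak lay in 944 bp of noncoding sequence behind SNF11, a gene of the SWI/SNF chromatin remodelling complex, and its summit fell between 360 and 502 bp before the start codon, with a median of 438 bp (position 593455). In 20 mg replicate 2 the summit was the one at 502 bp, just outside the window, which is why TPS2 counted as marked in 11 lists. A window of 1000 bp marked it in 12. Among the 11 lists, the authors' fold enrichment was 3.39 in the median and 5.11 at the highest, and the rank by −log10 p ran from 44th to 2005th. The peak was in the strongest 10% in 10 of these 11 lists, 4 mg replicate 2 being the exception. In 7 lists it ranked above the marked peaks of all other members. Peaks of TSL1 that covered its window with the summit outside are not in that comparison. They ranked above the TPS2 peak in 4 mg replicate 3 (126th against 465th) and 20 mg replicate 3 (254th against 329th).

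Unlike the TPS1 peak, that of TPS2 kept to the noncoding sequence. Its width was 359 to 545 bp, and in 0 of 12 lists did it reach the start codon. Over the coding sequence of TPS2 there was a peak in only 5 lists: all 3 at 20 mg, 4 mg replicate 1 and 100 mg replicate 3. Each of these lists had a summit 24 to 189 bp inside the gene, and 20 mg replicates 1 and 2 had another at positions 2562 and 2521. The rank of the strongest coding peak per list lay between 2662nd and 6012th.

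TPS3 (YMR261C, chromosome XIII, 790205 to 793369, minus strand) had the least variable summit of the 4. In all 12 lists it lay 215 to 250 bp before the start codon, in the 356 bp between TPS3 and the divergent gene YMR262W, with a median of 237 bp (position 793606). That range of 35 bp compares with 49 bp for TPS1 and with a median of 56 bp (quartiles 39 and 87 bp) over the 584 promoters marked in all 12 lists. The window of TPS3 is thus shared with YMR262W, and the lists cannot assign the peak to either gene. The authors' fold enrichment was 1.89 at the lowest, 3.10 in the median and 4.52 at the highest. Inside the gene, position 409 was under a peak in all 12 lists, with summits near it in 10. In 20 mg replicate 2 that was the upstream peak itself, which was 2139 bp wide and ran past the start codon. The coding sequence was covered to 20.6% ± 3.67 (SD, n = 12 lists).

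TSL1 (YML100W, chromosome XIII, 70624 to 73920, plus strand), the relative of TPS3, lay under the widest peaks of the group. In 7 lists a single peak of 3514 to 4143 bp ran from CAC2, a gene of chromatin assembly factor, across CUE4 and YML100W-A and into the first part of TSL1. These were 4 mg replicates 1 and 3, 20 mg replicate 3, 100 mg replicate 2 and all 3 lists at 500 mg. Such a peak has a single deposited summit. In 4 of these 7 lists it fell 261 to 301 bp before the TSL1 start codon, and in 3 lists it fell farther upstream, at 700 bp in 2 lists and at 1902 bp in 20 mg replicate 3.

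Position -261 was under a peak in 11 of 12 lists, the exception being 20 mg replicate 2, where the window held no peak at all. In that list a peak ended 960 bp upstream and the next began 16 bp inside the gene. The 3 remaining lists with separate upstream peaks, 4 mg replicate 2, 20 mg replicate 1 and 100 mg replicate 1, had summits at 241, 229 and 251 bp, and in 100 mg replicate 3 the summit lay at 623 bp. Inside TSL1, position 1625 was under a peak in all 12 lists, with a summit nearby in 11.

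**Figure D2:**
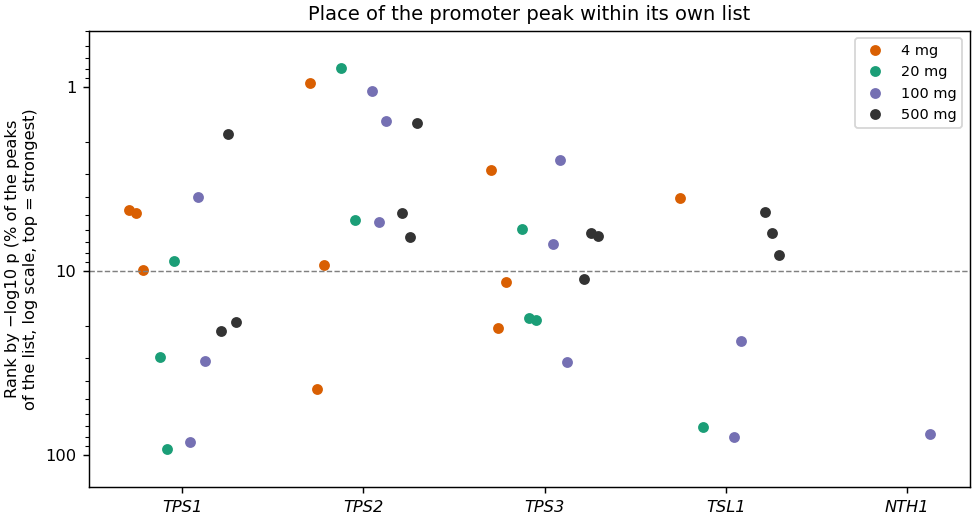
Rank by −log10 p of each member's marked promoter peak among all peaks of its own list, in percent of the list on a log axis with the strongest at the top; each point is a list, coloured by biomass, and the dashed line is 10%. TPS2 lies above the line in 10 of 11 lists and NTH1 appears once, at 77.0%; NTH2 and ATH1 have no marked peak.

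NTH1, the gene of the main neutral trehalase (YDR001C, chromosome IV, 450220 to 452475, minus strand), had little upstream and a steady peak late in the gene. Like TPS1, TPS3 and TSL1, it thus had a position inside the gene under a peak in every list. Its upstream neighbour YRB1, a divergent gene of nuclear transport, begins 570 bp away. A peak reached into the 500 bp window in 20 mg replicates 1 and 2 and in 100 mg replicates 1 and 3. In the first 3 of these the summit lay 604 to 659 bp upstream, inside YRB1, and only in 100 mg replicate 3 did it lie within the window, at 338 bp, with a fold enrichment of 1.72. That peak ranked 4469th of 5804. Inside NTH1, by contrast, a peak of 212 to 298 bp had its summit between positions 1754 and 1792 of the coding sequence in 12 of 12 lists (median 1774, position 450702). Its fold enrichment, from the authors' caller, was 2.02 at the lowest, 2.49 in the median and 3.15 at the highest. It was of middling rank, between 22.8% and 73.5% down its list.

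NTH2, the paralogue of NTH1 (YBR001C, chromosome II, 238941 to 241283, minus strand), had no peak in its 500 bp window in any list. With a window of 1000 bp it was marked in 9 lists, but every one of these summits lay in the coding sequence of the tandem neighbour RER2, which encodes an enzyme of dolichol synthesis and ends 425 bp upstream. Over NTH2 itself a peak occurred in 7 lists. A narrow peak near position 134 was present in all 3 lists at 500 mg and in 20 mg replicates 1 and 2, and in none at 4 mg or 100 mg. Near position 2166 another was present in 4 lists, none of them at 500 mg.

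ATH1, the acid trehalase gene (YPR026W, chromosome XVI, 615379 to 619014, plus strand), had no summit in the 1000 bp upstream in any list, although 820 bp of noncoding sequence separate it from CCL1. Of all genes, 31.4% likewise had no summit within 1000 bp in any list and 26.2% had one in all 12. A weak peak lay inside the gene near position 2279 in 7 lists: 4 mg replicate 3, all 3 at 20 mg and all 3 at 500 mg. No list at 100 mg had a peak over ATH1. The fold enrichment of this peak was 2.18 at 4 mg, 2.22, 1.91 and 2.50 at 20 mg, and 2.16, 2.69 and 3.09 at 500 mg. These values are not compared between lists. The median over all peaks was itself 2.95, 3.16 and 3.11 in the lists of 500 mg. Only in 20 mg replicate 3 was the ATH1 peak above the median of its list (2.40).

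**Figure D3:**
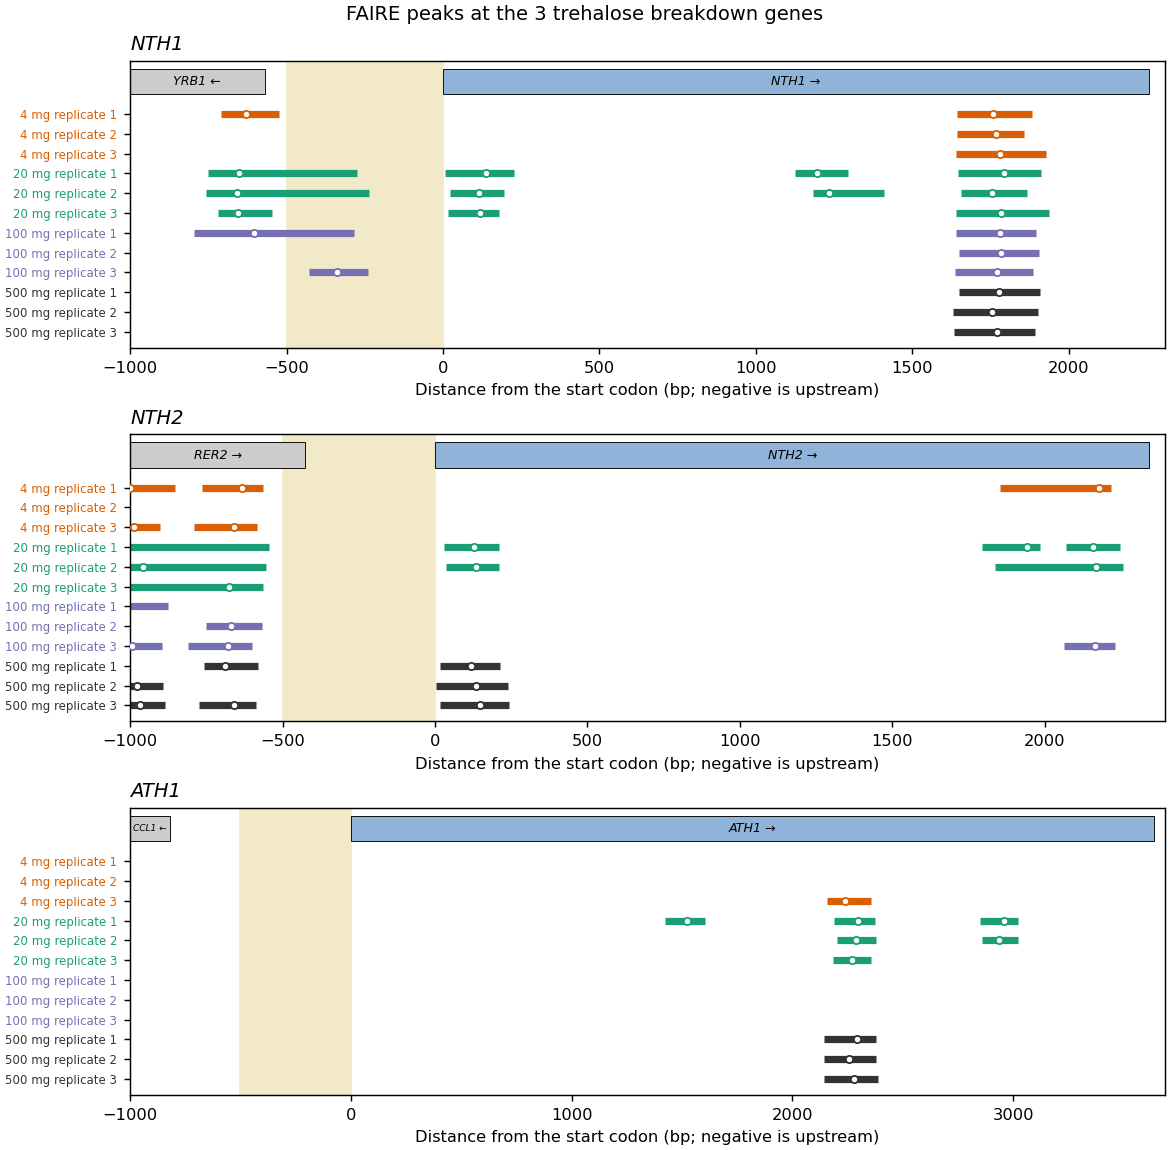
Peaks (bars) and summits (open circles) of the 12 lists at the 3 breakdown genes, drawn as for the synthesis genes, against the distance from the start codon in bp. The shaded window is empty for NTH2 and ATH1 and reached in 4 lists for NTH1, whose peak near position 1774 recurs in all 12 lists.

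Within the lists, the promoters of 3 pairs of members with related roles were compared by the share of the window under peaks. TPS1 exceeded TPS2 by 21.3 ± 16.0 percentage points and was higher in 11 of 12 lists (SD, n = 12; exact paired permutation test over all sign changes, two-sided, p = 0.00146, adjusted p = 0.00439 over 3 pairs). With a window of 250 bp the difference was 42.4 points (exact, adjusted p = 0.00439). That window leaves out the TPS2 summits, 360 to 502 bp upstream, so the larger difference follows from its placement. The upstream peaks of both genes also ran beyond the 500 bp window, those of TPS2 to 616 to 693 bp. The call ended when weak peaks were left out. It was 12.1 points with an adjusted p of 0.422 in the exact test among peaks with a −log10 q of 5 or more, and 12.1 points with 0.483 among the 3000 strongest peaks of each list, where TPS1 was marked in 10 lists either way.

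TPS3 and TSL1 could not be ordered. Their difference was 1.68 ± 34.3 points, TPS3 being higher in 4 lists and TSL1 in 8 (exact paired permutation test, adjusted p = 0.940). In 20 mg replicate 2 TPS3 was covered to 100% and TSL1 to 0%, and without that list the difference was -7.25 points (exact, adjusted p = 0.221). NTH1 minus NTH2 was 14.9 ± 22.3 points, above 0 in the 4 lists with a peak in the NTH1 window and 0 in the others. With NTH2 at 0 in all 12 lists, this difference is the coverage of NTH1 itself and could not be negative. The exact paired permutation test gave p = 0.125 (adjusted p = 0.188). That p is the smallest it can give with 4 lists that differ from 0, so the test could not call this pair.

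**Figure D4:**
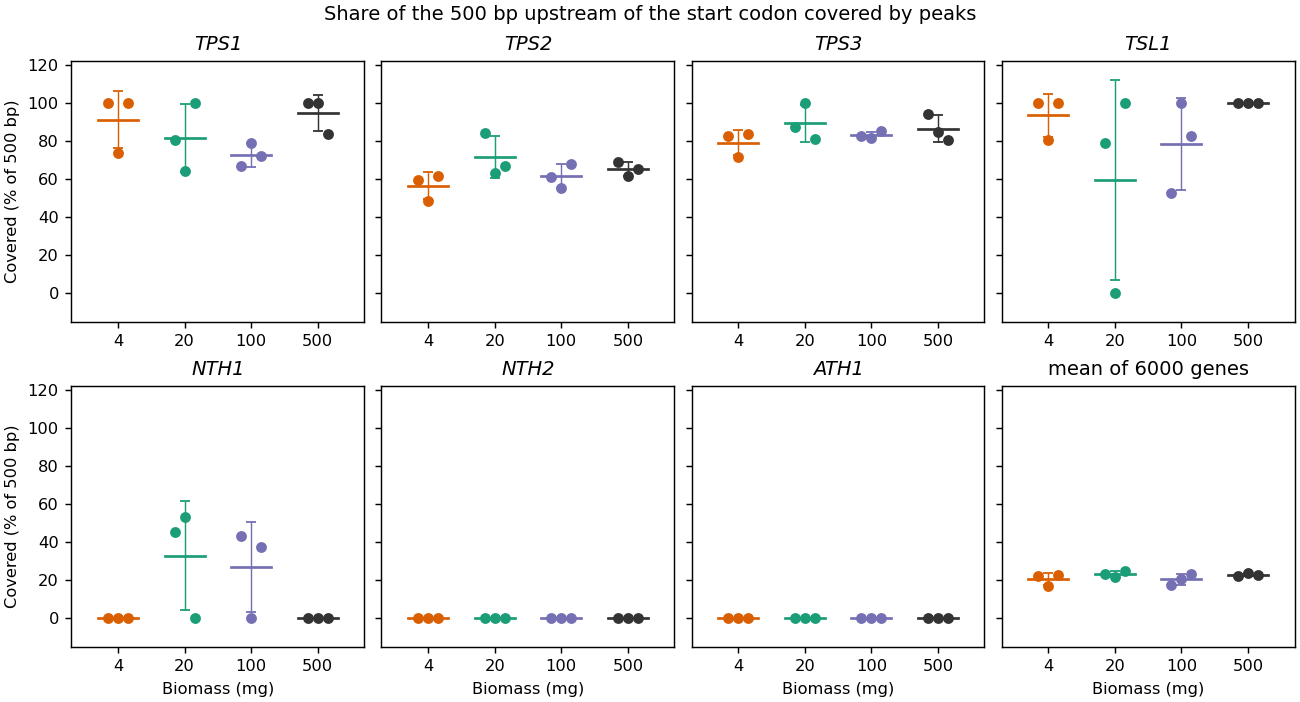
Percent of the 500 bp upstream of the start codon covered by peaks, against biomass in mg, for each member and for the mean of 6000 genes; points are lists, horizontal lines the mean and bars 1 SD (n = 3). Synthesis genes sit between 48.6% and 100% except TSL1 in 20 mg replicate 2 at 0%, while NTH2 and ATH1 are at 0% throughout.

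Whether less material changed the picture was asked with the 4 biomasses. Upstream coverage of the synthesis genes did not follow biomass in order. At TPS1 the 3 lists of 4 mg had 100%, 73.8% and 100% of the window covered, those of 20 mg 80.6%, 64% and 100%, those of 100 mg 66.6%, 79.0% and 72.2%, and those of 500 mg 100%, 100% and 83.8%. The values of 500 mg lay above all of 100 mg, and the other pairs of biomasses overlapped. From the smallest biomass to the largest, TPS2 had 56.5% ± 6.93, 71.4% ± 11.0, 61.5% ± 6.40 and 65.4% ± 3.60 (SD, n = 3 lists each). TPS3 had 79.1% ± 6.72, 89.4% ± 9.69, 83.2% ± 1.78 and 86.5% ± 6.96, and TSL1 93.5% ± 11.3, 59.6% ± 52.7, 78.5% ± 24.0 and 100% ± 0. For TPS2 the lists of 4 mg all lay below those of 20 mg and of 500 mg, and the other pairs of biomasses overlapped, as did all pairs for TPS3 and TSL1. The mean over all genes was 20.7% ± 3.09, 23.2% ± 1.41, 20.4% ± 2.81 and 22.7% ± 0.762.

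Across all genes, an exact permutation test of the 4 biomasses was run over the 15400 distinct ways to form groups of 3. For upstream coverage it called 0 of 3683 genes whose value varied (0% after Benjamini-Hochberg adjustment, with 663 genes, 18%, at an unadjusted p under 0.05), and the members' adjusted p lay between 0.335 for NTH1 and 0.572 for TPS3. For marking it called 0 of 1935 genes (0%, with 47 genes, 2.43%, unadjusted), and the adjusted p was 1 for TPS2, TSL1 and NTH1, the members whose mark varied. A mark present in 3 of 3 lists of a single biomass and in no other gives an unadjusted p of 0.0182 in this exact test. Such a pattern could not pass the adjustment on its own. The smallest unadjusted p that the exact test can give is 6.49e-05. For upstream or coding coverage, too, a single gene at that p could not pass on its own. The 0 calls thus do not show that coverage was the same at all biomasses. The number of members marked per list was 3.33 ± 0.577 for 4 mg, 3.00 ± 1.00 for 20 mg, and 4.00 ± 0 for both larger biomasses. These are means and SD of n = 3 lists each, given without a test. Of all promoters, 23.0%, 22.1% and 23.2% were marked in the lists of 4 mg and 25.7%, 27.2% and 25.15% in those of 20 mg. Those of 100 mg had 20.2%, 23.7% and 29.3%, and those of 500 mg 21.3%, 21.85% and 22.3%.

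Mean coverage inside the gene was highest at 20 mg for all 7 members, as was the mean over all genes, and the lists of that biomass held the most peaks. How many of all genes were highest at 20 mg was not counted, so the pattern is not shown to be particular to the members. Of the NTH1 coding sequence, the lists of 4 mg had 10.7%, 9.49% and 12.8% covered, those of 20 mg 29.1%, 27.0% and 20.4%, those of 100 mg 11.4%, 11.4% and 11.1%, and those of 500 mg 11.4%, 12.1% and 11.5%. All 3 lists at 20 mg lay above the other 9. Those 3 lists were the ones with a peak near position 118, and replicates 1 and 2 had a further summit at positions 1195 and 1233. TPS2 likewise had 15.4%, 16.6% and 10.6% at 20 mg, against at most 7.25% elsewhere and 0% in all 3 lists at 500 mg. ATH1 had 14.9%, 9.57% and 4.81% at 20 mg and 6.52%, 6.52% and 6.77% at 500 mg, but 0% in all 3 lists at 100 mg.

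None of these differences was called, in a test where a single gene could not pass the adjustment on its own. Over the 4311 genes whose coding coverage varied, the exact test called 0 (0% adjusted, with 1189 genes, 27.6%, at an unadjusted p under 0.05), and the adjusted p was 0.125 for NTH1, TPS2, TPS3 and ATH1, 0.147 for TPS1, 0.180 for TSL1 and 0.418 for NTH2. Unadjusted, 6 of the 7 members had an exact p under 0.05, NTH2 being the exception with 0.283. The mean over all genes was also highest at 20 mg, with 22.2% ± 3.14, 28.4% ± 1.196, 21.6% ± 2.88 and 25.1% ± 0.717 from the smallest biomass to the largest (SD, n = 3 lists each). The part of the number of peaks per list in the members' values was not tested. Without 4 mg replicate 3 the exact test gave NTH1 an adjusted p of 0.0350, with 12 of all genes called. When any other list was left out instead, the exact test gave NTH1 an adjusted p of 0.108 to 0.206.

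A peak lay over the coding sequence in all 12 lists for TPS1, TPS3, TSL1 and NTH1, that is 4 of 7 members, where 34.7% of all genes had one in every list and 27.8% in none. TPS2, NTH2 and ATH1 had one in 5, 7 and 7 lists.

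**Figure D5:**
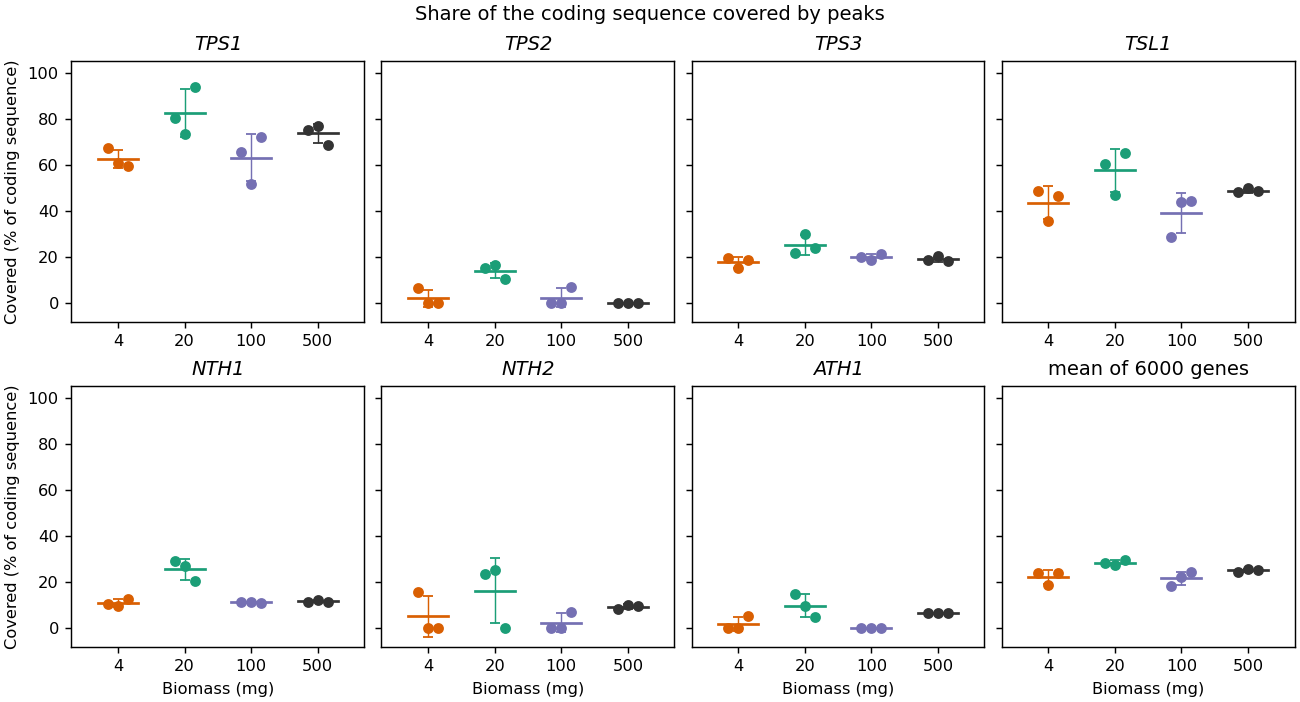
Percent of the coding sequence covered by peaks, against biomass in mg, for each member and for the mean of 6000 genes; points are lists, horizontal lines the mean and bars 1 SD (n = 3). NTH1 lies between 20.4% and 29.1% at 20 mg and at most 12.8% elsewhere, and ATH1 is at 0% in all lists at 100 mg.

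Genes of the enzymes that feed trehalose synthesis with glucose phosphates and UDP-glucose had upstream peaks in most lists. Of 6 such genes, 2 were marked in all 12 lists (9.73% of all genes were), PGM2 of the main phosphoglucomutase (median fold enrichment 3.16) and the hexokinase gene HXK2 (2.97), and 0 in none. GLK1, encoding glucokinase, followed with 6 lists (2.53), then HXK1, encoding the other hexokinase, with 5, UGP1, which encodes the enzyme that makes UDP-glucose, with 4 and PGM1 with 3. A peak overlapped the window in all 12 lists for 5 of the 6, PGM1 having 11, against 27.4% of all genes. The median of their mean window coverage was 68.9%, against 5.18% over all genes.

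Among 14 genes of known regulators of trehalose levels and of a trehalose transporter, 1 was marked throughout and 9 in no list, shares near the 9.73% and 58% of all genes. The gene marked throughout was DCS2, the paralogue of the decapping enzyme gene DCS1 (median fold enrichment 3.12). RAS2, of the Ras and protein kinase A pathway, was marked in 11 lists and BCY1, the regulatory subunit of that kinase, in 5. BMH1, of a 14-3-3 protein, was marked in 3 lists and overlapped in 12, and DCS1 was marked in 1. Marked in no list were the activator genes MSN2, MSN4 and GIS1, the kinase genes RIM15, TPK2 and TPK3, the phosphodiesterase gene PDE2, BMH2 of a 14-3-3 protein that binds Nth1, and the transporter gene MAL11. For MSN4 and TPK2 a peak overlapped the window in all 12 lists although no summit lay in it. The median of the mean window coverage over the 14 genes was 1.57%, against 5.18% over all genes.

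Across the 12 lists, the mean upstream coverage of the 7 members ran from 39.2% in 4 mg replicate 2 to 53.7% in 20 mg replicate 1. Among 3673 other genes with varying coverage and no shared window, the profiles most like it were those of MNN4, a gene of mannan phosphorylation in the cell wall (Pearson's r = 0.901), VPS4, of endosomal sorting (0.899), the iron regulator gene AFT1 (0.856), MOT1, of a factor that removes TATA-binding protein from DNA (0.847), and YCR025C (0.843). The mean over all genes had r = 0.711 with the members' mean, and all these values share the number and breadth of peaks per list. The values of r are over 12 lists and are given as a description.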

How the data were processed

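Per the labels, DNA from fixed FAIRE and unfixed input samples was sheared by sonication, purified with phenol-chloroform and sequenced with single-end reads. MACS2 (2.1.1.20160309), Bowtie2 (2.2.8), FastQC (0.11.5), SAMtools (1.4) and bedtools (2.26.0) are listed, with R64 (sacCer3) as the build, per the submitters' processing notes. The sources used here do not give tool settings or the peak threshold. Each list, per the labels, came from 1 FAIRE and input pair, so replicates were not pooled. Replicate numbers are those of the labels, and for replicates 2 and 3 of 100 mg and 500 mg the names of the deposited files carry other numbers. Fold enrichment as deposited is the ratio of FAIRE to input at the summit. It and the deposited −log10 p-value and q-value were computed by the authors' peak caller. The deposited score was 10 times the −log10 q, rounded down, for all but 4 peaks, and was not used. No peak was listed more than once, so each peak has 1 summit.

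Positions are 1-based on R64, and genes came from a RefSeq table of that assembly, whose models hold no untranslated regions. Strands came from the systematic names. Promoter sequences and their motifs were not analysed here. Coverage, marking and exact permutation tests were computed with Python 3.11.15, numpy 2.4.6 and pandas 2.3.3, and figures with matplotlib 3.10.9. The exact test of biomasses was tried on simulated upstream coverage only, and the test over sign changes on inputs with known answers. Recurrent positions are chains of summits no more than 100 bp apart, in at least 3 lists, given as the median, a grouping chosen after seeing the data. All 7 members were named, with the 3 genes of each related list marked in the most lists and all marked in none, and the 5 genes of most similar coverage. The remaining genes of both lists, and neighbours beyond the adjoining one, were named after their values were seen. A further regulator gene, beyond the 14 counted, is not reported here. The members and lists were chosen with earlier results of these data known. Alternatives were windows of 250 and 1000 bp, a −log10 q of 5 or more, the 3000 strongest peaks, overlap by 50 bp, a replicate block, leaving out each list and, added after seeing the data, the noncoding part of the window.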

Additional observations from a re-analysis of the deposited data

How the results depend on the processing

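The members marked in every list numbered 2 in the main setting and 3 with a window of 1000 bp, where 9.73% and 26.2% of all genes were. There were 3 with overlap by 50 bp and 2 to 3 when a list was left out. A window of 250 bp, a −log10 q of 5 or more and the 3000 strongest peaks gave 1 each. The share over all genes was not counted in these other settings, nor for the counts that follow. Members marked per list averaged 5.08 with a window of 1000 bp and 1.17 with 250 bp, since most upstream summits of these genes lie more than 250 bp from the start codon, and 3.55 to 3.73 when a list was left out. With a peak over the coding sequence in every list there were 2 members among the 3000 strongest peaks and 4 when any list was left out.

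TPS1 minus TPS2 was 12.1 points and not called at a −log10 q of 5 or more (exact, adjusted p = 0.422) and 12.1 points among the 3000 strongest peaks (0.483). It stayed called with a window of 250 bp, which leaves out the TPS2 summits (42.4 points), and with 1000 bp (15.7). When a list was left out it was 19.6 to 23.5 and stayed called. TPS3 minus TSL1 turned to -8.43 points with a window of 1000 bp, -9.50 with 250 bp and -2.95 in the noncoding part of the window, and ran from -7.25 to 3.60 when a list was left out, negative without 20 mg replicate 2 and, at -0.891, without 100 mg replicate 1. NTH1 minus NTH2 turned to -9.63 points with 1000 bp, where the windows take in peaks over RER2 for NTH2 and over YRB1 for NTH1. It was 0.833 with 250 bp, 0 among the 3000 strongest peaks, and 11.5 to 16.3 when a list was left out. The cause was not tested except where the windows' own construction shows it.

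Genes whose coding coverage differed between biomasses numbered 71 at a −log10 q of 5 or more and 0 to 12 when a list was left out, reaching 12 when 4 mg replicate 3 was dropped and 6 when either 20 mg replicate 3 or 100 mg replicate 3 was. For upstream coverage the range was 0 to 5, with 5 without 4 mg replicate 1, and for marking 0 to 0. The replicate block gave 0 calls for all 3 measures (3, 396 and 750 genes at an unadjusted p under 0.05 for marking, upstream and coding coverage). By the label numbers, 4 of 18 pairs of lists with the same replicate number had a correlation over 0.1 (median -0.0488). Of the pairs with different numbers, 14 of 36 did (median 0.0231). File names carry other numbers for some lists, so this check cannot decide whether lists were paired. The label numbers were not taken as pairs in the main tests, and the replicate block rests on them. The number of reads behind a list limits which weak peaks it can hold, and a gene without a peak is not shown to be closed.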
